A study of Mus musculus with 21 samples.

Results

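The genes that build and drive the axoneme, the microtubule core of the sperm tail, were followed in mouse testes with and without heat shock and with and without Mageb4. Genes were chosen by symbol, as entries whose names begin with Dnah, Dnai, Dnaaf, Rsph, Drc or Cfap followed by a number. Of 55573 entries in the deposited table, 64 matched by name. A mean of at least 1 TPM (abundance per transcript length, scaled to the same total in each library) over the 21 libraries was required, and 61 genes met it. They were 14 Dnah, 5 Dnaaf, 7 Rsph, 3 Drc and 32 Cfap genes. Dnah5, Dnah11 and Rsph4a fell short, with means of 0.21, 0.38 and 0.15 TPM. The lowest means that met the minimum were those of Cfap97d2 at 1.41 TPM and Dnah9 at 1.54 TPM. No entry bears a Dnai name, since the table lists the genes that RefSeq calls Dnai1 and Dnai2 as Dnaic1 and Dnaic2. These and 5 more genes under older symbols are described with the related genes.

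RNA sequencing was done on whole testes of C57BL6 mice to ask how loss of Mageb4, a MAGE family gene on the X chromosome, changes the transcriptome. There were 5 libraries of Mageb4 knockout testes taken 72 h after heat shock and 4 of wild-type testes taken at the same time after heat shock. Unheated Mageb4 knockout testes and unheated wild-type testes gave 6 libraries each. The labels call the libraries biological replicates. Mouse age, the knockout allele, and how hot and how long the heat shock was are unstated in the labels.

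The genotype labels fitted the targeted gene. Mageb4 averaged 0.12 ± 0.02 TPM in heated knockout (n = 5) and 8.03 ± 0.22 TPM in heated wild type (n = 4), and 0.05 ± 0.04 TPM in unheated knockout and 1.80 ± 0.17 TPM in unheated wild type (SD, n = 6 each). Depth is unknown, since TPM keeps none, and 17243 to 18547 genes reached 1 TPM in a library. Markers fixed for germ cells and somatic cells of the testis were present in every group. Summed TPM of 9 epididymal and efferent duct markers was 3557 in heated wild-type replicate 3, led by Crisp1 at 2126 TPM, and at most 20.4 in any other library.

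In a motile flagellum, a ring of doublet microtubules surrounds a central pair. Outer and inner dynein arms on each doublet walk along the next one and bend the tail, while radial spokes and the nexin-dynein regulatory complex link the doublets to the central apparatus and to each other and time the arms. Dynein arms are folded and joined in the cytoplasm by assembly factors before transport into the tail. In the testis most of these genes are transcribed in late spermatocytes and round spermatids, ahead of tail growth, and mutations in many of them cause immotile sperm with malformed tails in men and mice.

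Promoter sequence was examined because the genes moved together. RefSeq promoter windows (GRCm38.p6, 250 bases before to 50 after the annotated start) were at hand for 49 of the 61 genes. The letters searched on both strands were GTTGCNA and GTTGCC, core letters of the X-box bound by RFX factors, which overlap where GTTGCCA occurs, and TGACG and TGACGTCA, the short and full letters of the CRE bound by CREB and CREM, of which the full one holds the short one. GTTGCNA stood in the windows of 29 of the 49 genes (59.2%), and in those of 13.2% of the 12859 tested genes that have a window. GTTGCC stood in 19 of the 49 (38.8%), against 16.0% of the tested genes with a window, and 16 of the 49 held both. TGACG stood in 9 of the 49 (18.4%), against 31.7% of the tested genes with a window, and TGACGTCA stood in 1 (2.04%) against 3.25%. A match is a string of letters, and binding was not measured.

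Cfap161, a protein of the doublet wall, is shown for its 3 matches, and its 250 bases before the start (GRCm38.p6, chr7:83794840-83795089, minus strand) are printed 5′ to 3′ with GTTGCNA, or its reverse complement TNGCAAC, in capitals.
Cfap161: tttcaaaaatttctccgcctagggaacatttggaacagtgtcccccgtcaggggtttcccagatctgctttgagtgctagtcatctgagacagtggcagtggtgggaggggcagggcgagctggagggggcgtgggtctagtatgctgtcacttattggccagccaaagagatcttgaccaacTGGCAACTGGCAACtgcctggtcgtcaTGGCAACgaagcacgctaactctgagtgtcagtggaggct

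The next sequences show the match and its flanks in genes with the largest heat effects (Cfap45 at chr1:172521096-172521132, plus strand, and Cfap58 at chr19:47937638-47937674, plus strand), in both subunits of the regulatory complex described in full (Drc1 at chr5:30281366-30281402 and Drc3 at chr11:60353340-60353376, both plus strand), in a gene of the central apparatus (Cfap69 at chr5:5664230-5664266, minus strand) and in 2 genes described apart from the rest, of which Cfap20 was lower in heated knockout than in heated wild type and Cfap97d2 was not called after heat in the knockout (Cfap20 at chr8:95434943-95434979, minus strand, and Cfap97d2 at chr8:13705854-13705890, plus strand). All are from RefSeq windows on GRCm38.p6 and run 5′ to 3′ on the strand of the gene, with the match in capitals.
Cfap45: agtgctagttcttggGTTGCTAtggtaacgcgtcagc
Cfap58: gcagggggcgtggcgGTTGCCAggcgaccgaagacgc
Drc1: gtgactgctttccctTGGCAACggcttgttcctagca
Drc3: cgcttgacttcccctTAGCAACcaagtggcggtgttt
Cfap69: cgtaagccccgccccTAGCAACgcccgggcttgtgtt
Cfap20: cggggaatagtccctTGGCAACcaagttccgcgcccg
Cfap97d2: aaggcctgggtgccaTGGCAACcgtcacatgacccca

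Genes holding GTTGCNA kept a median of 32.8% of their unheated level after heat in the knockout and 8.31% in wild type. The 20 genes with a window and no such match kept 29.6% in the knockout and 7.12% in wild type. Dnah8, Dnah17, Rsph6a, Rsph9, Cfap206 and Cfap97d1 are among the genes without the letters in this window.

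All 61 genes lay within a wide range of levels in unheated testes, with group means of 0.91 to 1064 TPM in the knockout (median 51.0) and 0.78 to 1058 TPM in wild type (median 55.2). The 3 highest unheated levels per length were those of Rsph1, Cfap206 and Rsph3b, all of the radial spokes or their bases. Cfap73, Cfap97d2, Dnah10, Dnah2os and Dnah6 averaged under 1 TPM in at least 1 group, and their log2 changes, taken on TPM + 1, understate the change. Together the 61 genes summed to 2487 ± 327 TPM in heated knockout (n = 5), 1016 ± 198 TPM in heated wild type (n = 4), 7279 ± 60.5 TPM in unheated knockout and 7462 ± 99.6 TPM in unheated wild type (SD, n = 6 each). Heated knockout sums ran from 2131 to 2916 TPM and heated wild-type sums from 774 to 1211 TPM, so no heated knockout library fell among the heated wild-type ones.

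**Figure D1:**
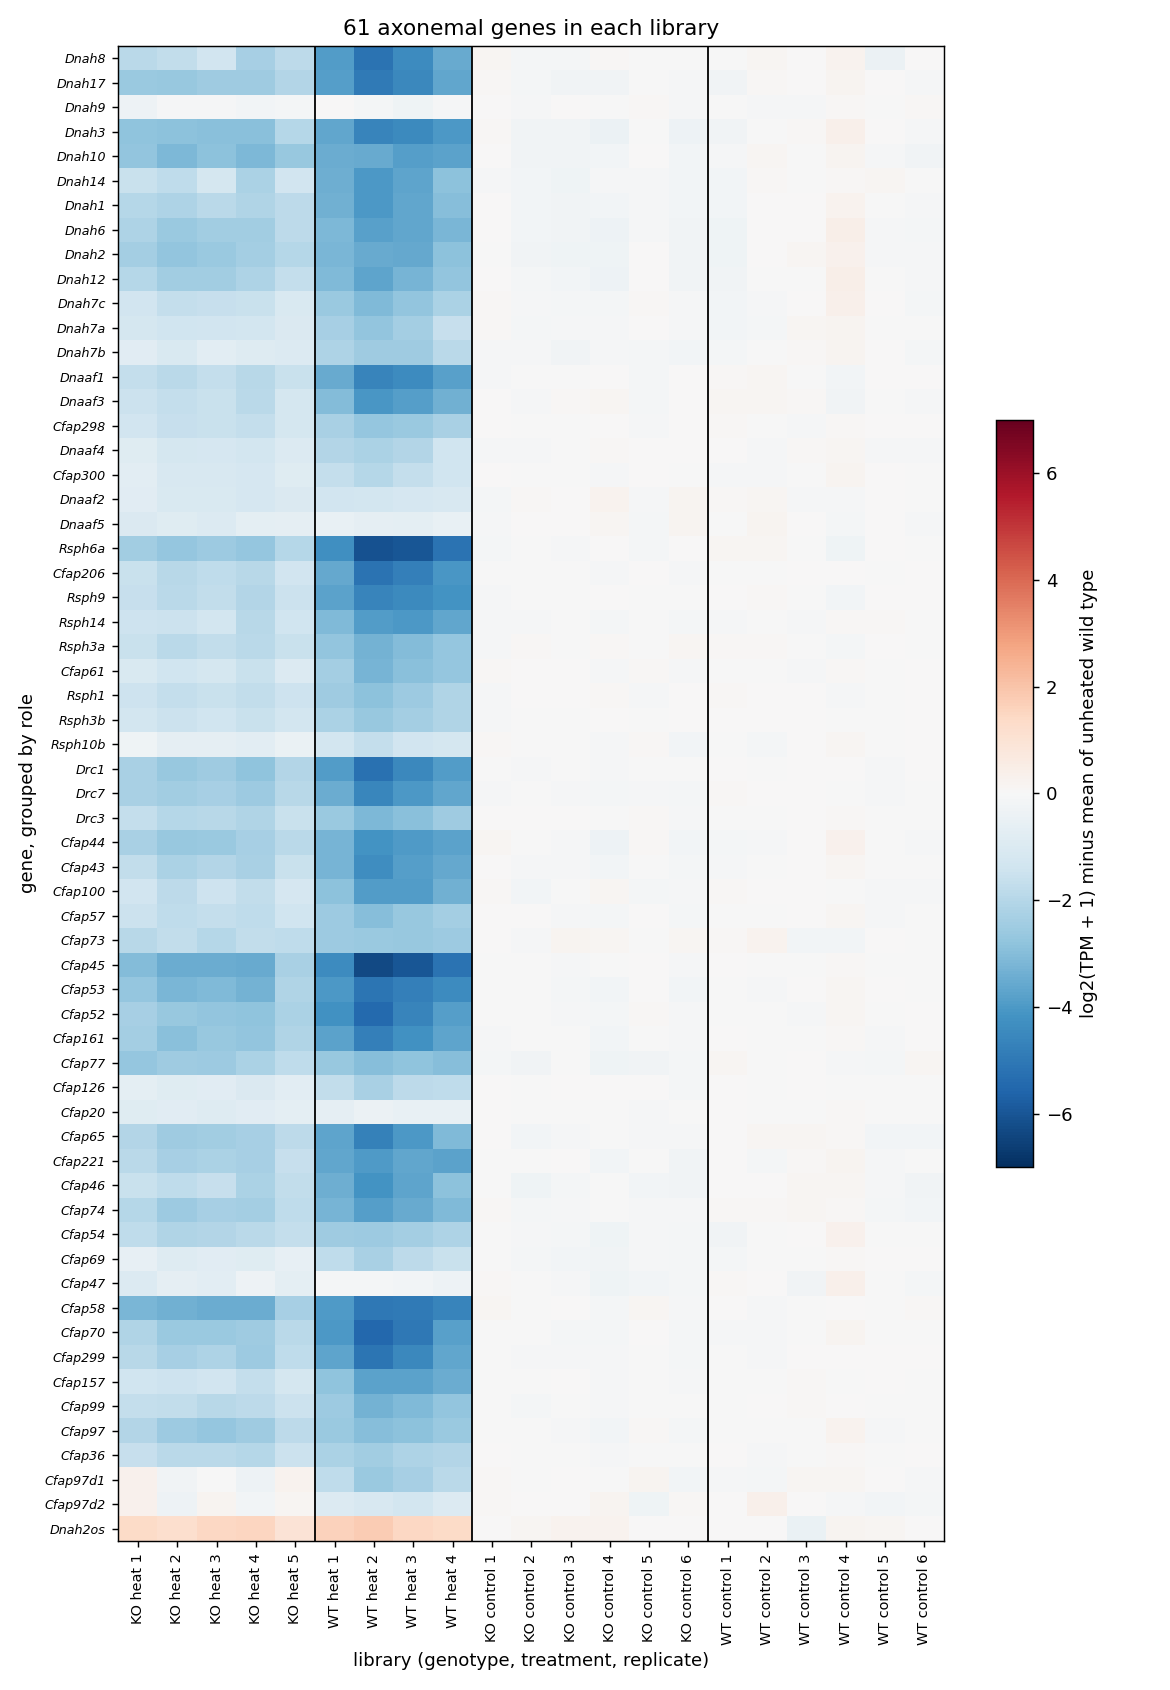
Level of each of the 61 genes (rows, grouped by role) in each of the 21 libraries (columns), as log2(TPM + 1) minus the mean of unheated wild type; blue is lower and red higher. Blue deepens in the 5 heated knockout columns and further in the 4 heated wild-type columns, the 12 unheated columns are near white, and Dnah2os is the one red row.

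Heat shock lowered nearly the whole axonemal gene set in both genotypes, and more in wild type. At 72 h after heat in the knockout, 58 of 61 genes were lower and 1, Dnah2os, was higher at an adjusted p under 0.05 (limma on log2(TPM + 1), Benjamini-Hochberg over 18977 genes); of all genes tested, 41.5% were lower and 41.3% higher, 82.8% in either direction. The median log2 change was -1.73, against 0.01 for all genes. In wild type 58 were lower and Dnah2os again higher, with 44.6% of all genes tested lower and 47% higher (91.6% in either direction), and the median was -3.31, against 0.07 for all genes. Levels left after heat, as a share of the unheated mean, had a median of 29.6% in the knockout and 7.63% in wild type. Heated and unheated libraries did not overlap for 58 genes in the knockout, 57 of them lower after heat and 1 higher; of all genes tested, 35.8% were lower and 33.9% higher without overlap. In wild type they did not overlap for 59 genes, 58 of them lower and 1 higher, and for all genes tested the shares were 42% lower and 44.5% higher. In whole testes, fewer cells of a type and less RNA per cell cannot be told apart.

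Markers of germ cells and somatic cells also changed after heat, some in the direction of these genes and others against it. Their part in the result was not tested. The summed TPM of 12 round spermatid markers was 731 to 1245 in heated knockout, 118 to 252 in heated wild type, 2114 to 2387 in unheated knockout and 2215 to 2400.0 in unheated wild type. After heat 11 of the 12 were lower in the knockout and 12 in wild type, with medians of -1.65 and -4.66 on the log2 scale. The 12 markers of pachytene and diplotene spermatocytes summed to 834 to 1148 TPM in heated knockout and 428 to 596 TPM in heated wild type, against 1955 to 2103 TPM in unheated knockout and 2058 to 2186 TPM in unheated wild type. Single markers of this list differed in direction, with 9 lower and 2 higher after heat in the knockout and 9 lower and 3 higher in wild type. Markers of elongating spermatids went another way, with all 12 higher after heat in the knockout (74831 to 92760 TPM in heated knockout, 48510 to 55593 TPM in unheated knockout) and, in wild type, 4 higher and 5 lower (32111 to 44210 TPM in heated and 46489 to 57540 TPM in unheated libraries). All 10 Sertoli cell markers were higher after heat in both genotypes, at 4177 to 6083 TPM in heated knockout and 9219 to 11522 TPM in heated wild type, against 1441 to 1944 TPM in unheated knockout and 1147 to 1307 TPM in unheated wild type. All 8 Leydig cell, 5 peritubular myoid and 6 macrophage markers were higher after heat in both genotypes too, and 6 of 8 spermatogonial markers. Markers of multiciliated epithelium summed to 278 to 355 TPM in heated knockout and 116 to 165 TPM in heated wild type, against 435 to 492 TPM in unheated knockout and 460 to 505 TPM in unheated wild type, led by Deup1 and Fam183b. Deup1 averaged 159 TPM in heated knockout and 105 TPM in heated wild type, against 213 TPM in unheated knockout and 226 TPM in unheated wild type, and Fam183b averaged 138 TPM in heated knockout and 19.8 TPM in heated wild type, against 195 TPM in unheated knockout and 198 TPM in unheated wild type. Of its 6 tested markers, 6 were lower after heat in the knockout and 5 in wild type, and Foxj1, one of them, is given with the regulators. Mcidas, Gmnc and Sntn of the same list were at most 0.39 TPM in any library.

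**Figure D2:**
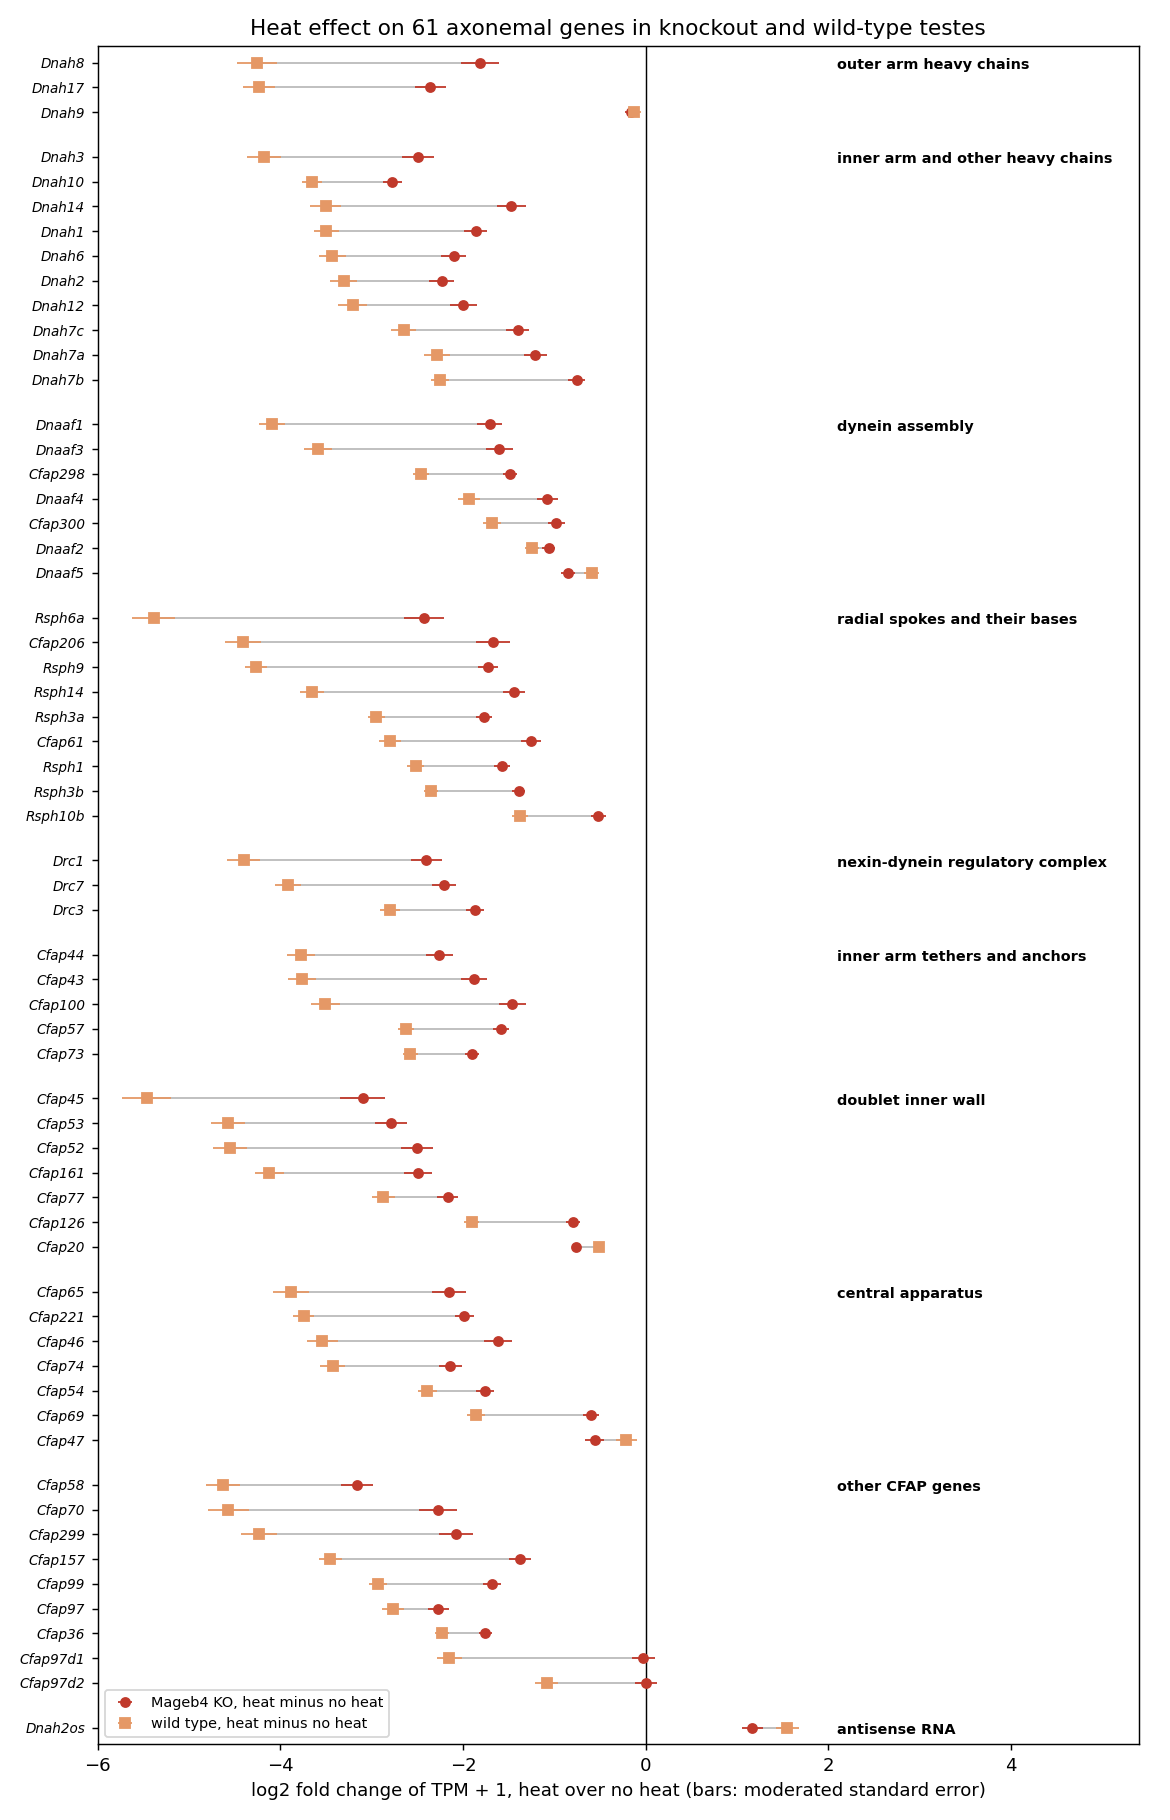
Log2 fold change of TPM + 1, heat over no heat, for each of the 61 genes by role, in the knockout (circles) and wild type (squares), with moderated standard errors as bars. For 55 genes the circle lies to the right of the square by a called difference; Cfap97d1 and Cfap97d2 lie at 0 in the knockout, and Dnah2os is the one gene to the right of 0 in both genotypes.

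Of the 3 outer arm heavy chains tested, motors that set the power of the beat, 3 were lower after heat in the knockout and 2 in wild type. Dnah8 and Dnah17, the forms known from sperm, fell in both genotypes, and Dnah9, a form known from airway cilia, had the smallest heat effects of the 3. Dnah8 measured 63.01, 69.3, 92.1, 45.6 and 64.9 TPM in heated knockout libraries 1 to 5 and 14.4, 5.44, 10.2 and 19.7 TPM in heated wild-type libraries 1 to 4. Unheated testes had 212 to 257 (median 229) TPM in the knockout and 175 to 273 (median 240.1) TPM in wild type. No heated library reached an unheated one, and the lowest heated knockout library was above the highest heated wild-type one. Dnah8 fell by 1.81 ± 0.21 (adjusted p = 5.8e-08) in the knockout and by 4.25 ± 0.22 (adjusted p = 4.5e-14) in wild type on the log2 scale, each given with its moderated standard error. Dnah17 measured 8.31, 7.83, 8.84, 8.81 and 12.4 TPM in heated knockout and 2.87, 0.81, 1.47 and 3.50 TPM in heated wild type, against 46.3 to 57.4 (median 51.2) TPM in unheated knockout and 45.7 to 63.3 (median 55.6) TPM in unheated wild type. Knockout replicate 5 stood highest among its group. The log2 changes of Dnah17 were -2.36 ± 0.17 in the knockout (adjusted p = 3.2e-11) and -4.23 ± 0.18 in wild type (adjusted p = 1.4e-15). Dnah9 measured 1.10, 1.52, 1.5, 1.30 and 1.41 TPM in heated knockout and 1.69, 1.42, 1.14 and 1.51 TPM in heated wild type, against 1.48 to 1.82 (median 1.63) TPM in unheated knockout and 1.54 to 1.78 (median 1.65) TPM in unheated wild type. Its heated and unheated libraries overlapped in both genotypes. Its log2 change was -0.15 ± 0.07 in the knockout (adjusted p = 0.0414) and -0.13 ± 0.07 in wild type (adjusted p = 0.0997). The knockout call was lost without heated knockout replicate 1 or 4, or unheated knockout replicate 1, 3 or 5, at adjusted p = 0.0667 to 0.135. It was also lost with no filter, quantile normalization, the replicate block, array weights and the fit of 2 groups, at adjusted p = 0.0511 to 0.0831. The range over all alternatives was 0.00898 to 0.135. The wild-type effect was called without heated wild-type replicate 1, at -0.18 and adjusted p = 0.0387, over a range of 0.00166 to 0.377. Dnah5, the cilia counterpart of Dnah8, and Dnah11, a second cilia form, were under the minimum, at 0.03 to 0.51 TPM and 0.13 to 0.95 TPM over the 21 libraries, and were not tested. Dnah11 was at 0.34 to 0.86 TPM in heated knockout and 0.44 to 0.95 TPM in heated wild type, against 0.13 to 0.41 TPM in unheated knockout and 0.19 to 0.29 TPM in unheated wild type.

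All 10 inner arm and other heavy chains were lower after heat in both genotypes. Inner arms shape the waveform, and Dnah1, Dnah2 and Dnah10 are among them. The genes of this group kept 9.19% to 57.9% of their unheated level in the knockout (median 23.4%) and 2.58% to 19.2% in wild type (median 6.92%). Dnah10, a heavy chain of the double-headed inner arm, kept the least of its level in the knockout, at 1.41 ± 0.39 TPM in heated knockout (n = 5) and 0.44 ± 0.18 TPM in heated wild type (n = 4), against 15.4 ± 1.54 TPM in unheated knockout and 17.1 ± 2.07 TPM in unheated wild type (SD, n = 6 each). Dnah3 changed by -2.49 ± 0.17 in the knockout and -4.18 ± 0.18 in wild type, and Dnah14 by -1.47 ± 0.16 and -3.50 ± 0.17 on the log2 scale, each at an adjusted p of 2.6e-08 or less.

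Dnah7a, Dnah7b and Dnah7c are paralogs on chromosome 1, and reads may not have been told apart among them. In GENCODE M21 transcripts, 38.6% of the 50-base windows of Dnah7a, 29.6% of those of Dnah7b and 46.8% of those of Dnah7c also occur in another of the 3, so their values are uncertain. The GTTGCNA match near their starts lies in nearly the same letters in all 3 (Dnah7a at chr1:53706814-53706850, minus strand, Dnah7b at chr1:46066820-46066856 and Dnah7c at chr1:46425440-46425476, both plus strand, all GRCm38.p6), printed 5′ to 3′ with the match in capitals.
Dnah7a: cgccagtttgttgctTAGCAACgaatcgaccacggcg
Dnah7b: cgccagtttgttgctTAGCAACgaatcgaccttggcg
Dnah7c: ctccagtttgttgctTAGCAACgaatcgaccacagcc

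Among the tested heavy chains other than Dnah9, Dnah7b kept the largest share of its level after heat in the knockout, 57.9%. It measured 16.4, 13.8, 17.2, 15.4 and 14.6 TPM in heated knockout and 5.98, 4.40, 4.56 and 7.19 TPM in heated wild type, against 24.8 to 27.97 (median 27.2) TPM in unheated knockout and 26.5 to 34 (median 29.8) TPM in unheated wild type. Heated wild-type libraries were lowest, heated knockout ones came next, and the unheated groups were highest and overlapped. Its log2 change was -0.75 ± 0.09 in the knockout and -2.25 ± 0.10 in wild type (adjusted p = 1.8e-07 and 3.0e-15). Dnah7a measured 14.8, 13.1, 13.7, 14.3 and 17.7 TPM in heated knockout and 6.34, 4.53, 6.11 and 11.1 TPM in heated wild type, against 32.8 to 38.2 (median 34.6) TPM in unheated knockout and 32.3 to 42.1 (median 36.04) TPM in unheated wild type. Dnah7c measured 7.27, 5.68, 5.88, 6.22 and 8.95 TPM in heated knockout and 2.53, 1.45, 2.15 and 3.57 TPM in heated wild type, against 17.8 to 21.5 (median 19.1) TPM in unheated knockout and 17.3 to 25.8 (median 19.5) TPM in unheated wild type. Neither overlapped between heated and unheated libraries. Dnah7a changed by -1.21 ± 0.13 in the knockout and -2.28 ± 0.14 in wild type, and Dnah7c by -1.40 ± 0.13 and -2.65 ± 0.14, each at an adjusted p of 2.5e-08 or less.

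Dnah2os, annotated as an antisense RNA to Dnah2 (chr11:69448548-69453676, plus strand, GENCODE M21 on GRCm38), went the other way. Its level was 3.42, 2.99, 3.82, 4.02 and 2.42 TPM in heated knockout and 4.45, 5.14, 3.72 and 3.49 TPM in heated wild type, against 0.79 to 1.06 (median 0.88) TPM in unheated knockout and 0.29 to 1.03 (median 0.80) TPM in unheated wild type. Every heated library was above every unheated one, and the heated groups overlapped. It rose by 1.17 ± 0.12 in the knockout (adjusted p = 5.9e-09) and 1.55 ± 0.12 in wild type (adjusted p = 7.2e-11) on the log2 scale. Its unheated means, 0.91 TPM in the knockout and 0.78 TPM in wild type, were under the minimum of 1 TPM. Dnah2os therefore met the minimum only through its heated libraries, a choice that favoured a rise. Dnah2 measured 6.57, 4.82, 5.43, 6.51 and 8.57 TPM in heated knockout and 3.18, 2.31, 2.19 and 4.38 TPM in heated wild type, against 30.01 to 37.8 (median 32.04) TPM in unheated knockout and 30.1 to 47.5 (median 37.1) TPM in unheated wild type, with no overlap between heated and unheated. It changed by -2.23 ± 0.14 in the knockout and -3.31 ± 0.15 in wild type (adjusted p = 4.1e-12 and 3.7e-15). Exons of the pair share 312 bases on opposite strands. The kit keeps strand, but whether the counting used it is unstated in the labels.

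Dynein assembly factors had the largest median share left after heat in wild type among the protein-coding groups. All 7 were lower in both genotypes, and they kept a median of 43.2% in the knockout (30.6% to 53.4%) and 23.3% in wild type (5.92% to 64.6%). Dnaaf1, a leucine-rich repeat protein needed for arm assembly, measured 137, 118, 140.3, 116 and 149 TPM in heated knockout and 37.5, 17.1, 19.6 and 30.9 TPM in heated wild type, against 403 to 452 (median 438) TPM in unheated knockout and 387 to 479.9 (median 451) TPM in unheated wild type. Dnaaf3, another arm assembly factor, measured 23.7, 21, 22.6, 17.7 and 29.4 TPM in heated knockout and 7.58, 3.19, 3.84 and 5.86 TPM in heated wild type, against 64.4 to 77.98 (median 70.7) TPM in unheated knockout and 58.1 to 77.3 (median 71.1) TPM in unheated wild type. For both genes the heated groups stood apart from each other and from the unheated ones. Dnaaf1 changed by -1.71 ± 0.13 in the knockout and -4.09 ± 0.14 in wild type (adjusted p = 1.6e-10 and 1.1e-16), and Dnaaf3 by -1.60 ± 0.14 and -3.59 ± 0.15 (adjusted p = 1.2e-09 and 1.7e-15). Dnaaf5, a HEAT repeat assembly factor, measured 9.54, 10.96, 10.2, 12.2 and 12.7 TPM in heated knockout and 13.8, 12.9, 12.3 and 13.8 TPM in heated wild type, against 18.7 to 23.2 (median 20.7) TPM in unheated knockout and 18.2 to 23.7 (median 20.3) TPM in unheated wild type. It changed by -0.85 ± 0.07 in the knockout and -0.59 ± 0.08 in wild type (adjusted p = 9.4e-10 and 4.3e-07), and its heated groups overlapped. Exons of Dnaaf2 and Dnaaf3 overlap other genes on the same strand by 1457 and 86 bases, which could add reads to them. On the other strand the overlaps are 584 bases for Dnaaf1, 1107 for Dnaaf2, 281 for Dnaaf3, 373 for Dnaaf5 and 851 for Cfap298. These could add reads too if the counting ignored strand.

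All 9 genes of the radial spokes and their bases among the 61 fell in both genotypes, with medians of 33.6% left in the knockout and 12.9% in wild type. Rsph1, a spoke head protein and the most abundant of the 61 genes, measured 383, 333, 362, 315 and 393 TPM in heated knockout and 186, 142, 179.7 and 242 TPM in heated wild type, against 1006 to 1131 (median 1076) TPM in unheated knockout and 1003 to 1100 (median 1068) TPM in unheated wild type. It changed by -1.58 ± 0.09 in the knockout and -2.52 ± 0.09 in wild type (adjusted p = 8.6e-13 and 2.6e-16). Rsph6a, a spoke head protein of sperm, kept the smallest share of its level in wild type, 2.13%, of the 61 genes. It measured 28.6, 23.7, 26.3, 23.6 and 39.1 TPM in heated knockout and 7.31, 1.31, 1.54 and 3.41 TPM in heated wild type, against 143 to 164 (median 154) TPM in unheated knockout and 129.6 to 175 (median 160.3) TPM in unheated wild type. Heated wild-type replicate 1 was the highest of its group and still under every heated knockout library. Rsph6a changed by -2.42 ± 0.22 in the knockout and -5.38 ± 0.23 in wild type (adjusted p = 1.6e-09 and 2.5e-15). As a ratio of means the unheated level in wild type was 47.1 times the heated one, and 76.5 times without heated wild-type replicate 1. Its cilia counterpart Rsph4a was under the minimum, at 0.03 to 0.31 TPM in any library. Rsph9, which joins the spoke head with them, measured 41.97, 35.6, 39.3, 30.9 and 45.9 TPM in heated knockout and 8.79, 4.52, 5.01 and 6.23 TPM in heated wild type, against 125 to 137 (median 128) TPM in unheated knockout and 117 to 141 (median 136) TPM in unheated wild type. The 3 levels, unheated, heated knockout and heated wild type, did not overlap. Rsph9 changed by -1.73 ± 0.11 in the knockout and -4.26 ± 0.12 in wild type (adjusted p = 7.1e-12 and 1.1e-17).

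Cfap206, a protein at the base of a radial spoke, was the most abundant Cfap gene. It measured 210.4, 159, 179.8, 162 and 248 TPM in heated knockout and 50.9, 15.9, 21.5 and 35.4 TPM in heated wild type, against 579.9 to 632 (median 611) TPM in unheated knockout and 598 to 639 (median 622) TPM in unheated wild type. All heated knockout levels were above all heated wild-type levels, and both groups were under every unheated library. Its log2 change was -1.67 ± 0.18 in the knockout and -4.41 ± 0.20 in wild type (adjusted p = 2.9e-08 and 3.2e-15). Rsph3a and Rsph3b, spoke stalk paralogs on chromosome 17, share 54.4% and 54.3% of their 50-base windows, so their values are uncertain. Rsph3b measured 185, 159.6, 171, 152 and 189 TPM in heated knockout and 95.6, 71.2, 85.1 and 106 TPM in heated wild type, against 436 to 456 (median 451) TPM in unheated knockout and 445 to 461 (median 457) TPM in unheated wild type. Rsph3a measured 111, 90.7, 99.3, 87.8 and 113 TPM in heated knockout and 49, 32.5, 39.5 and 50.7 TPM in heated wild type, against 320.1 to 360.1 (median 342) TPM in unheated knockout and 304 to 356 (median 334) TPM in unheated wild type. Both kept the order of the group, with changes of -1.39 ± 0.07 and -2.34 ± 0.08 for Rsph3b and -1.77 ± 0.09 and -2.95 ± 0.10 for Rsph3a in the knockout and wild type. Rsph10b lost the least of the spoke genes, at 43.6 ± 4.91 TPM in heated knockout (n = 5) and 24.1 ± 3.25 TPM in heated wild type (n = 4), against 62.7 ± 4.82 TPM in unheated knockout and 63.7 ± 4.30 TPM in unheated wild type (SD, n = 6 each). Its exons overlap Pms2 and a predicted gene on the same strand by 410 bases.

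**Figure D3:**
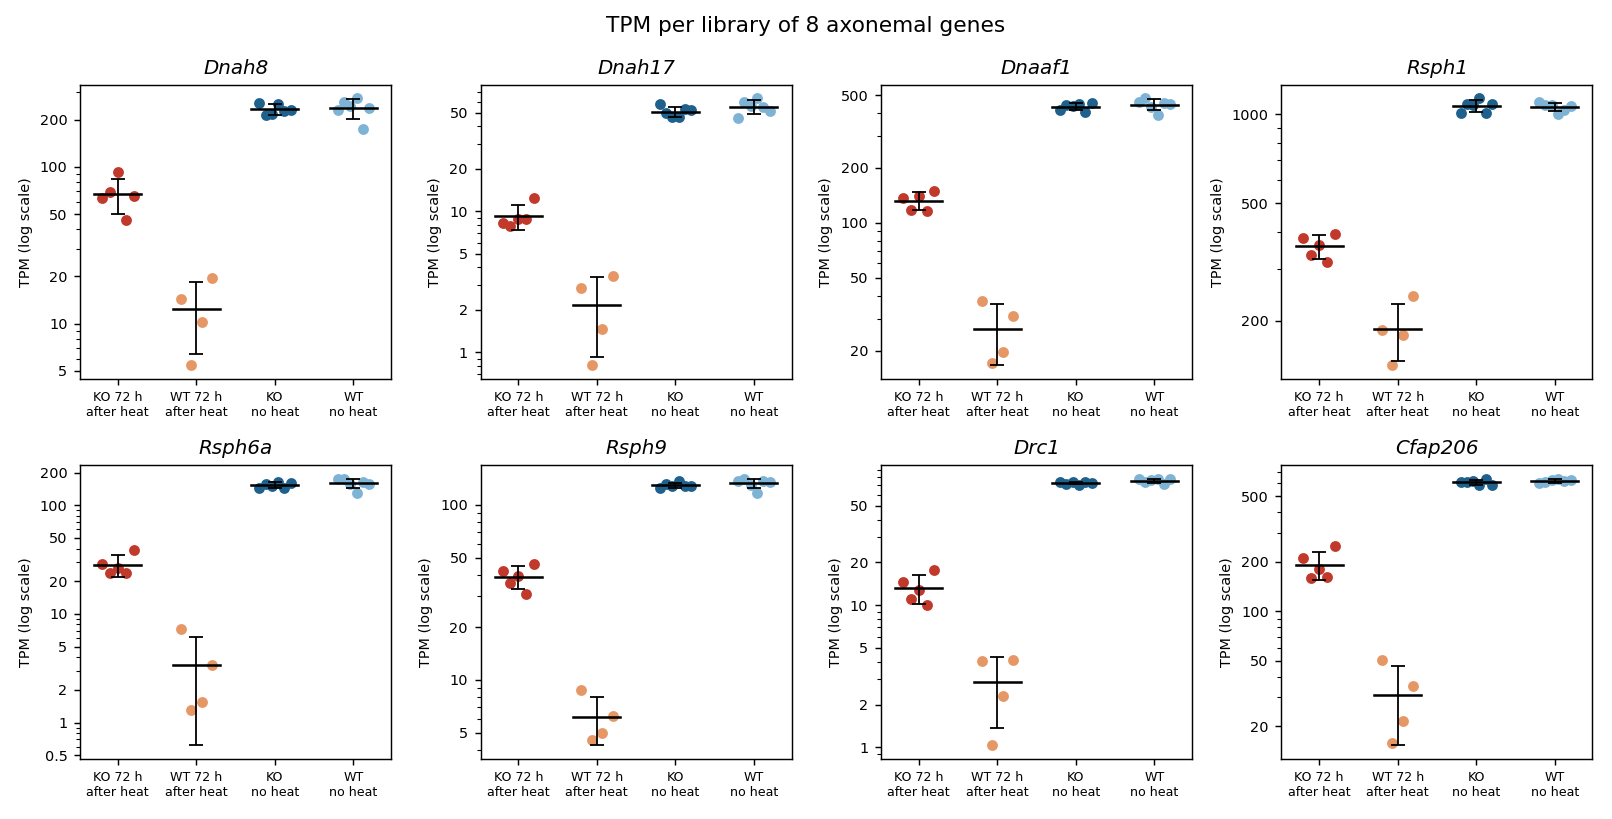
TPM on a log axis in each library for 8 genes of the dynein arms, their assembly, the radial spokes and the regulatory complex, in heated knockout (n = 5), heated wild type (n = 4), unheated knockout (n = 6) and unheated wild type (n = 6); lines are means and bars SD. In each panel the heated knockout points lie between the heated wild-type points and the unheated points, with no overlap.

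The 3 subunits of the nexin-dynein regulatory complex, the link between neighbouring doublets, fell in both genotypes. Drc1, a scaffold of the complex, measured 14.6, 10.98, 12.7, 9.99 and 17.6 TPM in heated knockout and 4.04, 1.03, 2.28 and 4.10 TPM in heated wild type, against 70.5 to 73.8 (median 73) TPM in unheated knockout and 70.9 to 77.5 (median 76.3) TPM in unheated wild type. Drc3 measured 22.04, 17.4, 17.98, 16.1 and 23.6 TPM in heated knockout and 11.1, 7.18, 8.58 and 11.9 TPM in heated wild type, against 68.7 to 76.5 (median 72.98) TPM in unheated knockout and 69.6 to 75.95 (median 71.6) TPM in unheated wild type. For each, the heated knockout libraries were all above the heated wild-type ones. Drc1 changed by -2.40 ± 0.17 in the knockout and -4.40 ± 0.18 in wild type (adjusted p = 3.1e-11 and 1.1e-15), and Drc3 by -1.87 ± 0.10 and -2.80 ± 0.11 (adjusted p = 4.7e-13 and 3.4e-16). Drc7 changed by -2.21 ± 0.13 and -3.92 ± 0.14. The 5 genes of inner arm tethers and anchors, among them Cfap43 and Cfap44, whose loss gives malformed sperm tails, were also all lower in both genotypes and kept medians of 27.1% in the knockout and 6.91% in wild type.

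All 7 genes of the doublet wall were lower in both genotypes, and they kept a median of 17.4% in the knockout and 5.21% in wild type. Cfap45, a protein inside the doublet, measured 25.1, 18.3, 18.1, 17.5 and 43.5 TPM in heated knockout and 9.05, 1.63, 2.32 and 4.97 TPM in heated wild type, against 195 to 212 (median 205) TPM in unheated knockout and 204 to 219 (median 209) TPM in unheated wild type. Replicate 5 of the heated knockout and replicate 1 of heated wild type were the highest of their groups. Cfap45 changed by -3.10 ± 0.25 in the knockout and -5.46 ± 0.27 in wild type (adjusted p = 2.3e-10 and 1.5e-14). Its unheated mean in wild type was 46.8 times the heated one, and 70.7 times without heated wild-type replicate 1. Cfap53, also inside the doublet, measured 11.5, 7.85, 8.55, 7.0 and 17.9 TPM in heated knockout and 4.01, 1.37, 1.95 and 2.75 TPM in heated wild type, against 69.8 to 79.9 (median 74.9) TPM in unheated knockout and 73.7 to 87.7 (median 79.1) TPM in unheated wild type. Its log2 change was -2.79 ± 0.18 in the knockout and -4.57 ± 0.19 in wild type (adjusted p = 6.0e-12 and 1.1e-15). Cfap77, placed at the doublet's outer junction, measured 2.20, 2.66, 2.53, 3.39 and 4.95 TPM in heated knockout and 2.26, 1.56, 1.88 and 1.61 TPM in heated wild type, against 15.7 to 19.1 (median 17.1) TPM in unheated knockout and 17.6 to 21.5 (median 19.4) TPM in unheated wild type, and its heated groups overlapped. It changed by -2.17 ± 0.12 in the knockout and -2.87 ± 0.12 in wild type (adjusted p = 4.8e-13 and 2.1e-15). Cfap20, a protein of the inner junction of the doublet, measured 50.2, 52.2, 47.6, 50.8 and 56.1 TPM in heated knockout and 58.5, 67.4, 61.9 and 63.3 TPM in heated wild type, against 84.1 to 90.6 (median 87.8) TPM in unheated knockout and 86.6 to 96.9 (median 88.6) TPM in unheated wild type. Here every heated knockout library was under every heated wild-type one. Cfap20 changed by -0.76 ± 0.05 in the knockout and -0.51 ± 0.05 in wild type (adjusted p = 3.5e-12 and 2.3e-09).

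Of the 7 genes of the central apparatus, 7 were lower after heat in the knockout and 6 in wild type, with medians of 24.0% and 7.63% left. Cfap69, needed for sperm tail formation in mice, measured 240.2, 192, 204, 193 and 240.5 TPM in heated knockout and 104, 73.1, 97.9 and 117 TPM in heated wild type, against 298 to 348 (median 320.3) TPM in unheated knockout and 326 to 379 (median 351) TPM in unheated wild type. Its 2 heated groups stood apart, with the knockout closer to the unheated level. It changed by -0.60 ± 0.09 in the knockout and -1.86 ± 0.10 in wild type (adjusted p = 2.8e-06 and 3.8e-14). Cfap47 was the one of these 7 genes not called in wild type. It measured 1.28, 1.83, 1.63, 2.44 and 1.68 TPM in heated knockout and 2.93, 3.05, 2.78 and 2.40 TPM in heated wild type, against 2.56 to 3.59 (median 3.04) TPM in unheated knockout and 2.63 to 4.66 (median 3.38) TPM in unheated wild type. Heated wild-type libraries overlapped the unheated ones, and wild-type replicate 4 lay under knockout replicate 4 after heat. Cfap47 changed by -0.56 ± 0.11 in the knockout (adjusted p = 5.7e-05) and by -0.21 ± 0.11 in wild type (adjusted p = 0.0831). Without unheated wild-type replicate 3 the wild-type effect was called, at -0.26 and adjusted p = 0.032, over a range of 0.00227 to 0.242 for all alternatives.

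Of the 9 remaining Cfap genes, 7 were lower after heat in the knockout and 9 in wild type. Cfap58, needed for the sperm tail in mice, measured 11.2, 9.96, 9.25, 9.34 and 21.8 TPM in heated knockout and 6.10, 2.53, 2.72 and 3.62 TPM in heated wild type, against 99.99 to 124 (median 111) TPM in unheated knockout and 106 to 117 (median 112) TPM in unheated wild type. Knockout replicate 5 was well above the other 4. Cfap58 changed by -3.16 ± 0.17 in the knockout and -4.63 ± 0.19 in wild type (adjusted p = 7.0e-13 and 7.0e-16). Cfap97d1, whose loss harms the sperm axoneme in mice, was called in wild type and not in the knockout; the difference between the genotypes was itself called. It measured 222, 155, 179, 139.6 and 213 TPM in heated knockout and 51.5, 29.3, 35.6 and 48.1 TPM in heated wild type, against 156 to 209 (median 182) TPM in unheated knockout and 165 to 199 (median 180.0) TPM in unheated wild type. Heated knockout libraries reached above and below the unheated range, and heated wild-type libraries were all under it. Its log2 change was -0.02 ± 0.13 in the knockout (adjusted p = 0.868) and -2.15 ± 0.14 in wild type (adjusted p = 1.6e-12). Cfap97d2 was also called in wild type and not in the knockout, at a low level, with 2.25, 1.07, 2.02, 1.34 and 1.90 TPM in heated knockout and 0.38, 0.19, 0.07 and 0.36 TPM in heated wild type, against 1.16 to 1.98 (median 1.73) TPM in unheated knockout and 1.34 to 2.31 (median 1.58) TPM in unheated wild type. It changed by 0.00 ± 0.12 in the knockout (adjusted p = 0.975) and -1.08 ± 0.13 in wild type (adjusted p = 5.3e-08). Cfap97, of the same name family, fell in both, by 2.27 ± 0.12 in the knockout and 2.77 ± 0.12 in wild type.

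**Figure D4:**
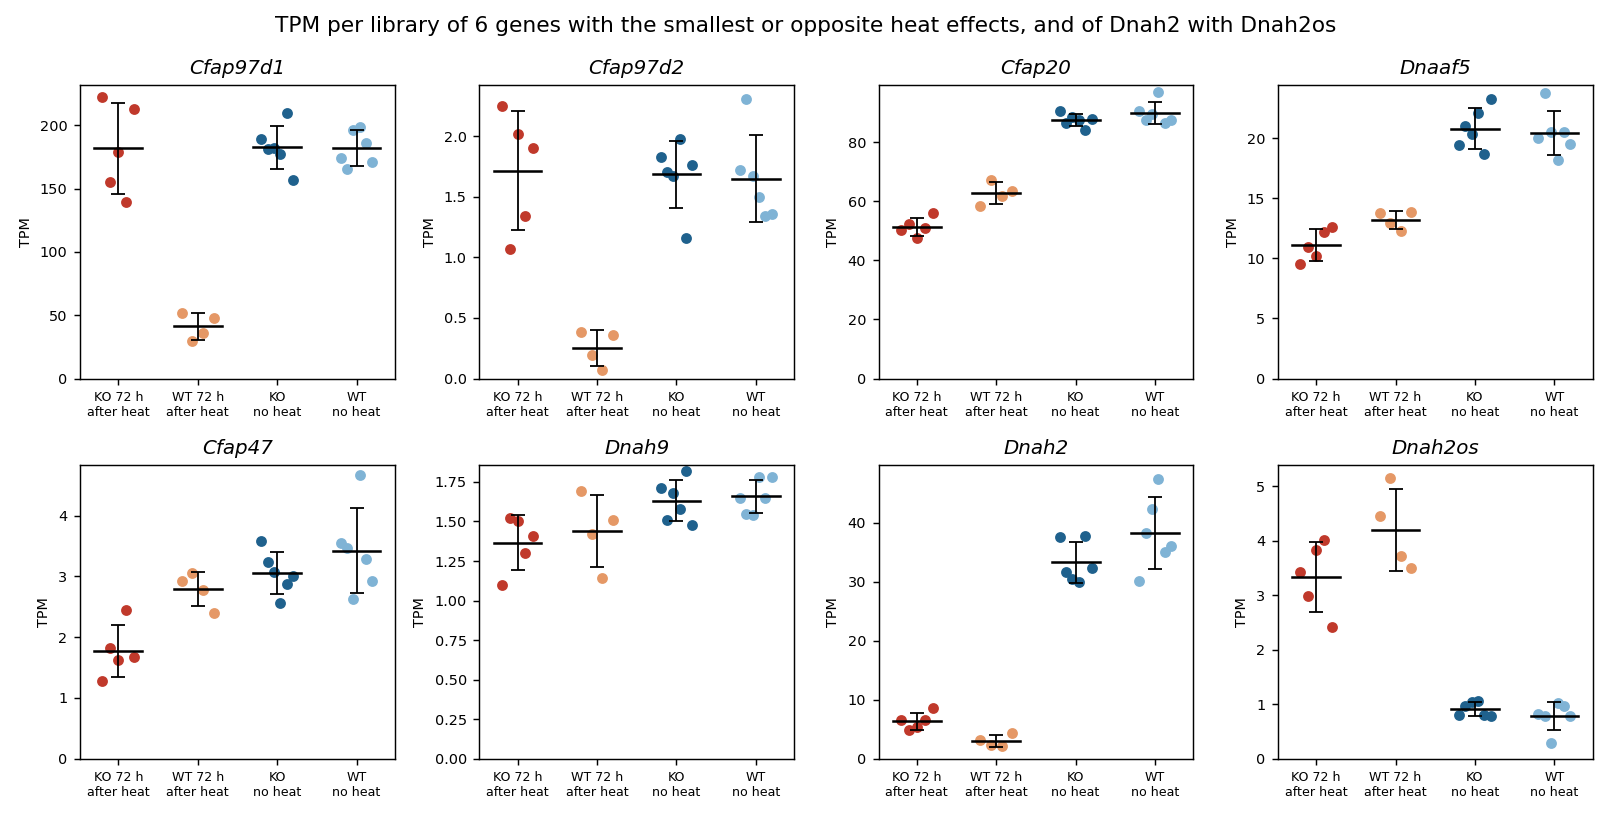
TPM in each library for 6 genes with the smallest or opposite heat effects and for Dnah2 with its antisense RNA Dnah2os, in heated knockout (n = 5), heated wild type (n = 4), unheated knockout (n = 6) and unheated wild type (n = 6); lines are means and bars SD, and axes start at 0. Cfap97d1 and Cfap97d2 are lower in heated wild type than in the other groups, Cfap20 and Dnaaf5 are lower in heated knockout than in heated wild type on average, and Dnah2os is high in both heated groups where Dnah2 is low.

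After heat, axonemal genes held a larger share of all TPM in the knockout than in wild type. Of 61 genes, 56 were higher and 3 lower in heated knockout than in heated wild type (limma, Benjamini-Hochberg), where 34.4% of all genes tested were higher and 49% lower, 83.5% in either direction. The median log2 difference was 1.23 (all genes -0.20). The libraries did not overlap for 54 genes, 53 of them higher in the knockout and 1 lower, where 29.9% of all genes tested were higher and 42.5% lower without overlap. Rsph6a led, with a log2 difference of 2.91 ± 0.24 (adjusted p = 9.9e-10), followed by Cfap206 at 2.71 ± 0.20 (adjusted p = 1.9e-10) and Rsph9 at 2.50 ± 0.12 (adjusted p = 7.8e-13). The means of Rsph6a were 28.3 ± 6.38 TPM in heated knockout (n = 5) and 3.39 ± 2.78 TPM in heated wild type (n = 4), a ratio of 8.33. Every gene of the inner arm, spoke, regulatory complex and tether groups was higher. The 3 lower ones were Cfap47 at -0.46 ± 0.12 (adjusted p = 0.00117), Cfap20 at -0.28 ± 0.05 (adjusted p = 3.5e-05) and Dnaaf5 at -0.23 ± 0.08 (adjusted p = 0.013), which play parts in the central apparatus, the doublet junction and arm assembly. Scaling TPM by median-of-ratios factors shifted the median of all genes by 0.11 in this comparison, and Dnaaf5 was then no longer called, nor with quantile normalization. Dnah10, at 0.19 (adjusted p = 0.113), and Cfap73, at 0.15 (adjusted p = 0.156), also lost their calls with quantile normalization. Both averaged under 1 TPM in heated wild type. Dnah9 and Dnah2os did not pass the test, at -0.04 ± 0.08 (adjusted p = 0.602) and -0.27 ± 0.13 (adjusted p = 0.0606). Dnah9 was called with quantile normalization, at -0.41 (adjusted p = 9.92e-05). Dnah2os was called without heated knockout replicate 3 or 4, heated wild-type replicate 3 or 4 or unheated wild-type replicate 3 (adjusted p = 0.0424, 0.0299, 0.0478, 0.0317 and 0.0293), over a range of 0.0213 to 0.266 for all alternatives. The call of Dnaaf2, at 0.23 ± 0.08 (adjusted p = 0.0153), was lost without heated knockout replicate 1 (adjusted p = 0.0524) or heated wild-type replicate 1 (adjusted p = 0.0542), over a range of 0.0015 to 0.145 for all alternatives.

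Single libraries differed across the set. Heated knockout replicate 5 held the highest value of its group for 45 of 61 genes and replicate 4 the lowest for 30. In heated wild type, replicate 2 was lowest for 48 genes, replicate 4 highest for 32 and replicate 1 for 26. Unheated wild-type replicate 4 was highest of its group for 39 genes. Counts of higher genes in the knockout after heat stayed at 55 to 56 when any 1 library was left out, and at 55 with heated wild type reduced to replicates 2 and 4, an alternative chosen after the data were seen.

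Without heat, no axonemal gene was called between knockout and wild type. None of the 61 passed in either direction by limma with Benjamini-Hochberg adjustment, where 1.33% of all genes tested did (1.25% higher and 0.0843% lower), and none had an unadjusted p under 0.05, where 16.0% of all genes did. No alternative fit called one either. The median log2 difference was -0.05 (all genes 0.03), and 49 of the 61 differences were below 0, as were 40.8% over all genes. The smallest p belonged to Dnah7b, at -0.15 ± 0.09 (adjusted p = 0.465), Cfap77, at -0.18 ± 0.11 (adjusted p = 0.474), and Cfap69, at -0.13 ± 0.09 (adjusted p = 0.522). The differences ranged from -0.20 for Dnah3 to 0.12 for Dnah2os on the log2 scale. These misses do not show that the levels were equal.

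The difference of the heat effects, knockout minus wild type, was tested directly. Of 61 genes, 55 had a higher (less negative) heat effect in the knockout and 4 a lower one, where 33.2% of all genes tested were higher and 47.6% lower, 80.7% in either direction. The median difference was 1.33 on the log2 scale (all genes -0.23). The heated libraries enter both this test and the comparison of the heated groups, and all 4 groups enter this one, so the results share libraries. Rsph6a differed by 2.96 ± 0.32 (adjusted p = 6.5e-08), Cfap206 by 2.74 ± 0.27 (adjusted p = 1.8e-08), Rsph9 by 2.54 ± 0.16 (adjusted p = 1.3e-10) and Cfap97d1 by 2.13 ± 0.19 (adjusted p = 5.3e-09). By group the medians were 1.88 for outer arm chains, 1.29 for inner arm and other chains, 0.86 for assembly factors, 1.55 for spoke genes, 1.70 for the regulatory complex, 1.51 for tethers, 1.63 for the doublet wall and 1.29 for the central apparatus. Dnah9 and Dnaaf2 did not pass, at -0.03 ± 0.10 and 0.18 ± 0.11 (adjusted p = 0.809 and 0.134). Dnah9 passed with quantile normalization, at -0.33 (adjusted p = 0.0086), and Dnaaf2 with median-of-ratios scaling, at 0.30 (adjusted p = 0.0182). Cfap73 lost its call with quantile normalization (adjusted p = 0.301).

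Of the 4 lower genes, Dnah2os, Cfap47 and Dnaaf5 were near the threshold and Cfap20 was further past it. Dnah2os differed by -0.38 ± 0.17 (adjusted p = 0.0436), Cfap47 by -0.35 ± 0.16 (adjusted p = 0.0458), Dnaaf5 by -0.26 ± 0.11 (adjusted p = 0.0343) and Cfap20 by -0.25 ± 0.07 (adjusted p = 0.00236). With median-of-ratios scaling none of the 4 was called. Of them, 1 was called without heated knockout replicate 1, heated wild-type replicate 1 or unheated wild-type replicate 6, and 2 were called without heated knockout replicate 2, 3 or 5, heated wild-type replicate 2, unheated knockout replicate 2, 3, 4 or 6, or unheated wild-type replicate 2 or 3. In addition, Cfap47 alone lost its call without heated wild-type replicate 3, unheated knockout replicate 1 or unheated wild-type replicate 5, and Dnaaf5 alone without heated or unheated wild-type replicate 4. Over all alternatives the adjusted p ran from 0.0236 to 0.159 for Dnah2os, 0.00967 to 0.159 for Cfap47, 0.0125 to 0.259 for Dnaaf5 and 0.00059 to 0.143 for Cfap20. Cfap20 kept its call in each fit without 1 library, at an adjusted p of 0.00717 or less.

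The comparisons were also fitted without heated wild-type replicate 3, the library with epididymal markers. After heat in wild type, 58 genes were then lower and 1 higher, where 44% of all genes tested were lower and 46.9% higher. Between heated knockout and heated wild type, 56 were higher and 4 lower, where 33.5% of all genes were higher and 49% lower. The difference of the heat effects was higher for 55 genes and lower for 3, where 32.4% of all genes were higher and 47.8% lower.

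Genes of the same pathway outside the name rule were counted in lists. Over all genes tested, 41.5% were lower after heat in the knockout and 44.6% in wild type. Of 49 other axoneme genes, 46 were lower after heat in the knockout and 48 in wild type, with medians of -1.87 and -3.51, and 47 were higher and 2 lower in heated knockout than in heated wild type, where 34.4% of all genes tested were higher and 49% lower. The 2 were Dnal1, an outer arm light chain, at -0.63, and Dynll2, at -0.41. Ropn1l, a spoke stalk protein, averaged 570 TPM in heated knockout and 72.7 TPM in heated wild type, against 1312 TPM in unheated knockout and 1339 TPM in unheated wild type. Dynll1 and Dynll2, light chains shared with cytoplasmic dynein, and Tctex1d1 were the exceptions after heat. Dynll2 rose by 0.80 in the knockout and 1.26 in wild type, and Dynll1 changed by 0.08 in the knockout (adjusted p = 0.091) and fell by 0.35 in wild type. Tctex1d1 rose by 0.56 in the knockout and fell by 0.85 in wild type. RefSeq gives 7 genes of the table a name that the rule would take, and the table lists them under older symbols. Of these, 6 were lower after heat in the knockout (median -0.85) and 5 in wild type (median -1.16), and between heated groups 4 were higher and 2 lower in the knockout (median 0.28). Dnaic1 and Dnaic2, the outer arm intermediate chains, fell by 1.76 and 3.55 in the knockout and by 3.21 and 4.16 in wild type. Pih1d3 (Dnaaf6 in RefSeq) changed by -1.22 in the knockout and -2.30 in wild type, and 4930452B06Rik (Cfap20dc) by -0.85 and -1.16. The changes were, for Ppip5k2 (Cfap160), -0.59 in the knockout and 0.18 in wild type, for Pih1h3b (Dnaaf6b), -0.24 and 0.10, and for 1810043G02Rik (Cfap410), -0.15 and -0.25. Of these 3, Ppip5k2 and Pih1h3b were not called in wild type and 1810043G02Rik was not called in the knockout. Between heated groups Ppip5k2 and Pih1h3b were lower in the knockout, at -0.75 and -0.28. Of 10 preassembly genes outside the name rule, Pih1d3 among them, 10 were lower after heat in the knockout and 8 in wild type, where Wdr92 rose by 0.19 and Ruvbl1, at -0.08, was not called.

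Genes listed under cytoplasmic dynein and dynactin went both ways after heat. Of 20 genes, 6 were higher and 11 lower after heat in the knockout, where 41.3% of all genes tested were higher and 41.5% lower. In wild type 9 were higher and 8 lower, where 47% of all genes tested were higher and 44.6% lower. In heated knockout against heated wild type, 2 were higher and 14 lower (median -0.40). Of all genes tested, 34.4% were higher and 49% lower in that comparison. Summed TPM of the 20 genes was 1012 to 1129 in heated knockout and 1223 to 1323 in heated wild type. Unheated testes had 1404 to 1481 TPM in the knockout and 1430 to 1495 TPM in wild type. Dynlrb1 had the largest rise of the list after heat in both genotypes. It averaged 73.4 TPM in heated knockout and 123 TPM in heated wild type, against 29.2 TPM in unheated knockout and 24.5 TPM in unheated wild type. Its axonemal relative Dynlrb2 averaged 46.6 TPM in heated knockout and 8.60 TPM in heated wild type, against 194 TPM in unheated knockout and 198 TPM in unheated wild type. Intraflagellar transport genes, which carry axonemal parts into the tail, were lower after heat for 23 of 26 in the knockout (median -1.03) and 22 of 26 in wild type (median -1.33). Between heated groups 16 were higher and 4 lower in the knockout, where 34.4% of all genes tested were higher and 49% lower.

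Most listed regulators of ciliary genes were lower after heat. Of 11 tested regulators, 10 were lower and 1, Taf7l, higher after heat in each genotype. Over all genes tested, 41.5% were lower in the knockout and 44.6% in wild type. Foxj1, a master regulator of motile cilia, averaged 2.57 ± 0.86 TPM in heated knockout (n = 5) and 1.12 ± 0.92 TPM in heated wild type (n = 4), against 40.3 TPM in each unheated group. Rfx2, needed for spermatid tail genes in mice, averaged 72.1 ± 5.34 TPM in heated knockout and 30.8 ± 6.50 TPM in heated wild type, against 172 TPM in unheated knockout and 175 TPM in unheated wild type. Sox30, a regulator of the round spermatid programme in mice, averaged 73.2 ± 9.36 TPM in heated knockout and 11.6 ± 4.85 TPM in heated wild type, against 104 TPM in unheated knockout and 106 TPM in unheated wild type. It changed by -0.51 in the knockout and -3.16 in wild type.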

How the data were processed

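RNA from whole testes was extracted with Trizol, and stranded libraries of mRNA were read on an Illumina HiSeq machine, as the protocols in the labels state. Reads were aligned with STAR to mm10, per the submitters' processing notes. The authors deposited 1 table of TPM per gene and library. The labels leave unstated how reads were counted, and with which annotation and strand setting.

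The 18977 genes whose mean reached 1 TPM entered the test on log2(TPM + 1) with limma 3.58.1 in R 4.3.3, in 1 fit of the 4 group means over 21 libraries with a mean-variance trend. In all, 5 comparisons were made, and p-values were adjusted by Benjamini-Hochberg over all genes, with a threshold of 0.05. The fit was tested on simulated data. TPM is a share, so a change in abundant genes moves all others, and it keeps no depth.

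Genes given in full were the pair of highest mean TPM in each name family, the paralog sets, and in each comparison the 3 called with the largest rise and the 3 with the largest fall (without heat, the 3 of smallest p). Dnah5, Dnah11 and Rsph4a of the paralog sets, under the minimum, are given as ranges. Cfap97d1, Cfap97d2 and Dnah2 were added once values had been seen, and so was Dnaaf2, given by its tests only. Dnah3, Dnah10, Dnah14, Drc7, Rsph10b, Cfap73 and Cfap97 are outside this rule and are given in part. Describing Dnah10 and Rsph10b as extremes rests on values seen. The genes and lists were chosen with earlier results of these data known. A planned test of the summed TPM was left out. Alternatives were other pseudocounts, filters, scalings, a replicate block, array weights, fits of 2 groups and each library left out; their effects close the text. Coordinates are from GENCODE M21 and promoters from RefSeq, both on GRCm38. Shared 50-base windows were counted after the data were seen.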

Additional observations from a re-analysis of the deposited data

Results flagged for a closer look

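The difference of the heat effects, knockout minus wild type, passed the test for 55 genes as higher and 4 as lower (limma, Benjamini-Hochberg). On the log2 scale it was 2.96 for Rsph6a, 2.74 for Cfap206, 2.54 for Rsph9, 2.13 for Cfap97d1 and 1.09 for Cfap97d2. It was -0.38 for Dnah2os, -0.35 for Cfap47, -0.26 for Dnaaf5 and -0.25 for Cfap20.

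Of 116 groups of values, 5 held a library far from the others of its group, where chance gives about 1 in 20 groups. Heated knockout replicate 5 had 12.44 TPM of Dnah17, next to 8.84 TPM in the nearest library, and 21.79 TPM of Cfap58, next to 11.21 TPM. Unheated knockout replicate 4 had 0.51 TPM of Dnah5, next to 0.34 TPM. Unheated wild-type replicate 4 had 25.75 TPM of Dnah7c, next to 20.37 TPM, and unheated wild-type replicate 3 had 0.29 TPM of Dnah2os, next to 0.78 TPM.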

How the results depend on the processing

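Counts of genes lower after heat, and of genes higher in heated knockout than in heated wild type, stayed within 1.5 times under every alternative run. With no filter the genes higher after heat were 2 in the knockout and 2 in wild type, with a minimum of 5 TPM they were 0 and 0 because the minimum leaves out Dnah2os, and with quantile normalization they were 2 in wild type. The 4 genes with a lower heat effect in the knockout became 1 with no filter, 2 with a minimum of 5 TPM, 0 with median-of-ratios scaling, 2 with the replicate block, 2 with array weights, 1 with heated wild type reduced to replicates 2 and 4 (chosen after seeing the data) and 1 to 4 without 1 library. Median-of-ratios scaling gave summed levels of 7549 TPM in unheated knockout and 7887 TPM in unheated wild type, and shifted the median of all genes by -0.21 for heat in wild type and 0.14 for the difference. Directions turned for 3 genes near 0. The heat effect in the knockout of Cfap97d2 was -0.0037 with a pseudocount of 0.1, -0.0467 with median-of-ratios scaling, -0.0064 with the replicate block, -0.0932 with array weights and -0.0653 to 0.0975 without 1 library, and that of Cfap97d1 was 0.2709 with quantile normalization and -0.1019 to 0.0651 without 1 library. For Dnah9, heated knockout against heated wild type was 0.0295 with median-of-ratios scaling, 0.0049 with array weights and -0.1042 to 0.0058 without 1 library, the difference was 0.0634, 0.0089 and -0.0882 to 0.0218, and heat in wild type was 0.1763 with quantile normalization (adjusted p = 0.0379). Quantile normalization also called Dnah9 lower in heated knockout than in heated wild type, at -0.4077 (adjusted p = 9.92e-05). It called the difference of the heat effects of Dnah9 lower too, at -0.3279 (adjusted p = 0.0086). The causes were not tested. Same-numbered libraries of different groups correlated from -0.228 to 0.314 in their deviations from group means, which does not settle whether the numbers pair them. With the replicate block, 57 genes were lower after heat in the knockout, since Dnah9 was lost. TPM keeps no depth, so counting error of the low genes is unknown.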
